A study of Mus musculus with 12 samples.

Results

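The effect of a long high-fat diet on mouse fat tissue is described here from the 6 of the 12 libraries of the study that come from mice without injections. They were chosen by their diet labels: 3 libraries of the Chow group (8, 17 and 19) and 3 of the HFD group (4, 30 and 38). All mice were of the inbred strain C57BL/6N, with no engineered allele stated. From an age of 6 weeks they ate either regular chow (Chow) or a high-fat diet (HFD), in both cases for 18 weeks. The treatment label of both groups is a dash, so no injection is recorded for either, and sex is not among the labels. The labels do not say whether each library is 1 animal, so the p-values measure the spread between these libraries, which may in part be technical. The series title gives the tissue as gonadal white adipose tissue, the fat pad around the gonads, while the source label of each sample says duodenum. The adipocyte markers summed to 25736 to 30182 CPM in Chow and 6566 to 8437 CPM in HFD. The 4 listed intestinal markers, Vil1, Muc2, Lct and Epcam, summed to 4.14 to 6.32 CPM in Chow and 1.21 to 1.59 CPM in HFD, and Cdx2 and Fabp2 had no row, so the defining markers of gut were at or near 0.

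White fat stores triglyceride in adipocytes and also holds blood vessels, nerves, progenitor cells and immune cells, above all macrophages. In obesity adipocytes enlarge and some die, and macrophages gather around them and take up lipid. The identity of each cell rests on transcription factors, which bind DNA and set which genes are read. Receptors, channels and transporters link the cell to its surroundings, secreted factors carry signals to other cells, and noncoding RNAs are transcripts that are not translated into protein. The description below follows these roles and leaves the usual adipocyte and macrophage genes aside.

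The libraries held 11702225 to 13756819 counts in Chow and 16646176 to 27408092 in HFD. Levels are in CPM, which relate each count to the size of its library after TMM scaling, and each mean ± SD is over 3 libraries. Values by library are given in the order Chow 8, 17 and 19 and HFD 4, 30 and 38. Of 30327 genes listed, 16216 had enough counts for a test with edgeR. At an adjusted p under 0.05, 59.8% of them were called, 29.8% as rises and 30.0% as falls on the high-fat diet. In 68.5% the 3 libraries of one diet did not overlap the 3 of the other (34.6% with HFD above and 33.9% with HFD below). With 3 against 3 libraries no exact permutation test of a single value can go below p = 0.1. A share of called members near these percentages is the background of this comparison and not a feature of a list. The median log2 fold change of all genes tested was -0.03. Mitochondrial ribosomal RNA took 6.05%, 9.66% and 28.7% of the counts in Chow and 1.399% to 1.79% in HFD, so it moved with the diet. The libraries hold RNA of whole tissue, in which more cells of a type and more RNA per cell cannot be told apart. Of the macrophage markers 7 of 8 rose and 1, Cd163, fell, with a summed level of 543 to 1359 CPM in Chow and 5665 to 6313 CPM in HFD. All 9 adipocyte and all 7 endothelial markers fell, 7 of 8 fibroblast markers rose, and 5 of 6 mast cell markers rose. Of these markers only Mcpt4 (Chow 17) and Ms4a2 (Chow 19), both of mast cells, were listed at 0 in a library. The part of these cell types in the results below was not tested.

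Genes were grouped into 39 lists in 5 classes. Among transcription factors 60 of 285 tested rose and 129 fell (median log2 fold change -0.33). Among receptors and adhesion molecules 74 of 291 tested rose and 136 fell (median -0.49). Channels and transporters were near the background in both directions, as 133 of 413 tested rose and 144 fell (median -0.05). Of the secreted factors 82 of 195 tested rose and 54 fell (median 0.36), the only 1 of the 5 classes in which rises outnumbered falls. Among the noncoding genes with a known name or role 12 of 58 tested rose and 16 fell (median -0.10). The share of genes called therefore leaned to falls in transcription factors and receptors and to rises in secreted factors, against an even split over all genes.

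**Figure D1:**
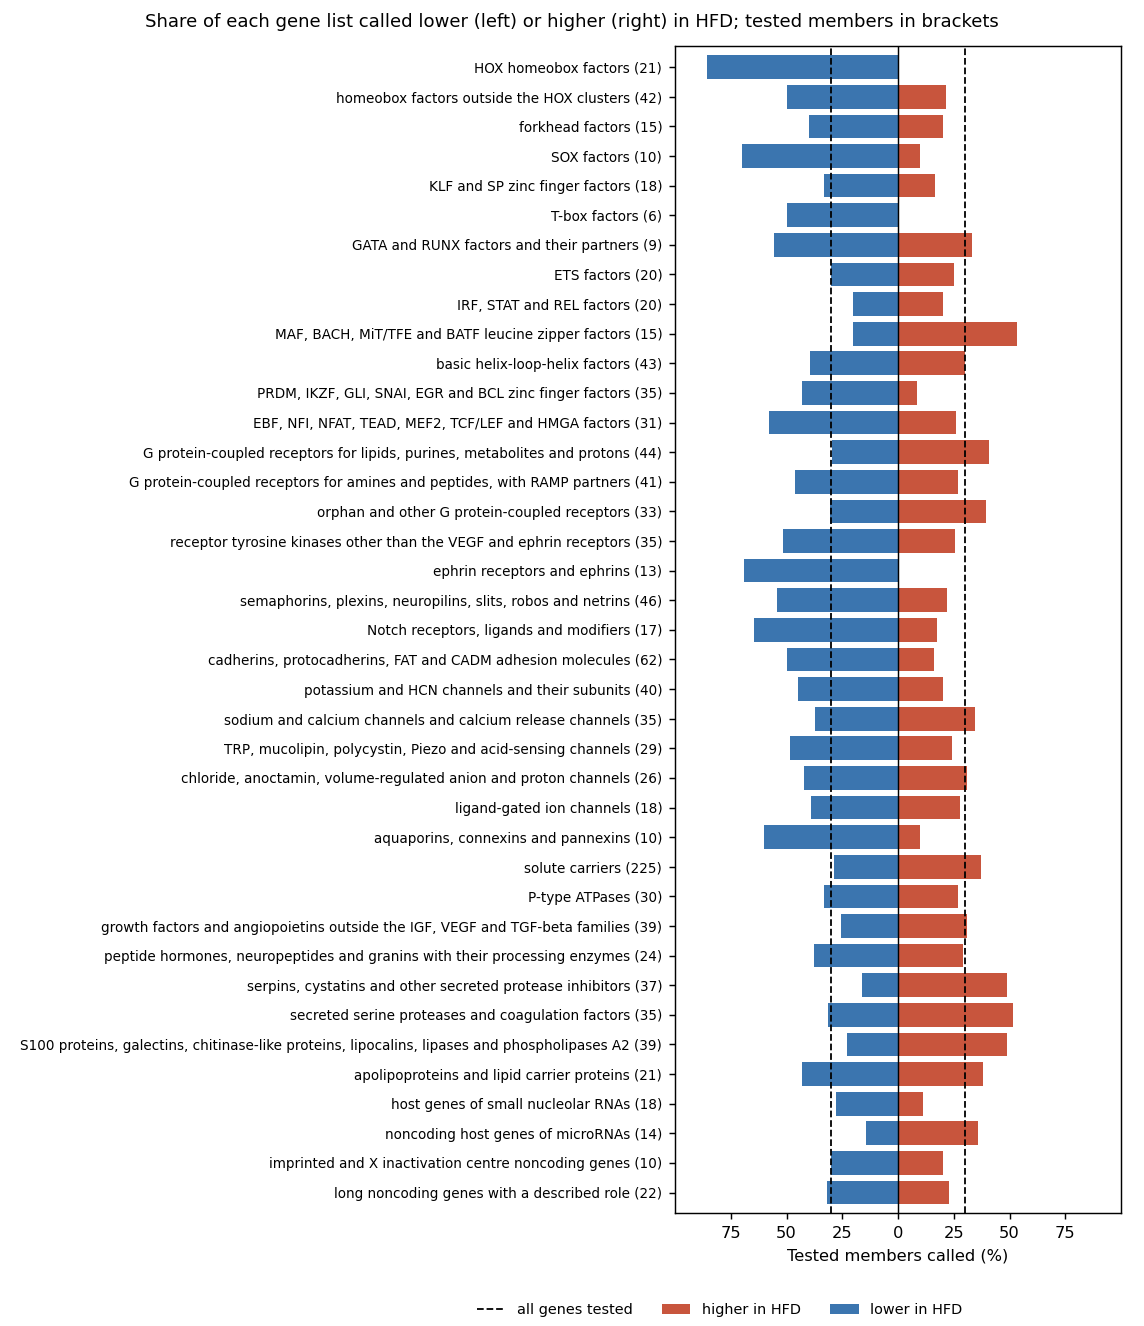
Share of the tested members of each gene list called lower (blue, to the left) or higher (red, to the right) in HFD, in percent, with the number of tested members in brackets and dashed lines at the shares over all genes tested (30.0% lower and 29.8% higher). HOX genes, SOX factors, ephrins and Notch genes reached furthest to the left. The MAF and MiT/TFE factors, secreted serine proteases, the S100 and lectin group and serpins reached furthest to the right.

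Several transcription factors of blood and myeloid cells rose, as did most macrophage markers. Spi1 (ENSMUSG00000002111, chromosome 2, 91082390 to 91115756 on GRCm38) encodes PU.1, the ETS factor that macrophages need to develop. It was at 11.2, 7.42 and 5.54 CPM in the Chow libraries and 103, 106 and 115 CPM in the HFD libraries. All 3 HFD libraries lay far above all 3 Chow libraries, with no overlap (log2 fold change 3.72 with an SE of 0.22, adjusted p = 1.15e-05 in edgeR). Of the 20 ETS factors tested 5 rose and 6 fell, close to the background (median log2 fold change 0.13). Etv1 also rose, from 4.52 ± 1.62 to 9.77 ± 1.12 CPM. Etv3, a repressor of growth, fell from 219 ± 55.3 to 84.8 ± 4.17 CPM. Erg, an ETS factor of endothelial cells, fell from 21.8 ± 3.17 to 9.98 ± 1.27 CPM, and Ets1 fell from 148 ± 14.0 to 67.0 ± 6.71 CPM. Fli1, which both endothelial and blood cells use, was at 69.0 ± 2.08 CPM on the high-fat diet against 78.8 ± 9.53 CPM on chow and did not reach the threshold (adjusted p by edgeR = 0.171), though it passed as lower under upper quartile scaling.

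The interferon regulatory factors, which switch on genes of infection and inflammation, also differed from each other. Irf5, a factor of inflammatory macrophages, rose from 22.8 ± 7.81 to 141.1 ± 4.03 CPM. Its value is uncertain, as 14.1% of its exon sequence overlaps other annotated exons, most of all those of Tnpo3. Irf8, which monocytes need, rose from 26.5 ± 4.58 to 86.7 ± 2.35 CPM. Irf4 (ENSMUSG00000021356, chromosome 13, 30749226 to 30766976), a factor of adipocyte lipid handling and of some macrophages, was at 24.97, 24.3 and 49.99 CPM in the Chow libraries and 9.46, 7.72 and 8.61 CPM in the HFD libraries. The Chow libraries were spread widely but stayed above every HFD library (log2 fold change -1.93 with an SE of 0.28, adjusted p = 5.77e-04 in edgeR). Of the 20 tested IRF, STAT and REL factors 4 rose and 4 fell. These counts depended on single libraries, as 8 rose without Chow 17, 8 fell without Chow 8, and 2 fell without HFD 4 or HFD 30. Stat5a, which relays growth hormone and cytokine signals, fell from 46.04 ± 6.05 to 27.1 ± 3.20 CPM.

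Leucine zipper factors of the MAF, BACH and MiT/TFE families rose more often than genes overall: 8 of 15 rose and 3 fell, although only 5 rose when any 1 of the HFD libraries was left out. MiT/TFE factors drive the genes of lysosomes, the organelles that digest lipid and protein. Mitf rose from 39.9 ± 7.41 to 113 ± 5.61 CPM, Tfeb from 14.3 ± 1.48 to 36.6 ± 2.70 CPM and Tfec, which is largely restricted to macrophages, from 1.52 ± 0.592 to 12.9 ± 2.42 CPM. Tfe3, at 48.5 ± 2.40 CPM on the high-fat diet against 42.8 ± 4.03 CPM on chow, did not reach the threshold (adjusted p by edgeR = 0.173), and of the family's level per kilobase of exon it made up 30.8% to 36.5% in Chow and 15.2% to 17.4% in HFD. Bach2, a repressor known from lymphocytes, fell from 16.2 ± 4.65 to 5.84 ± 0.394 CPM, and Maff, a small MAF partner, from 17.3 ± 2.89 to 10.1 ± 0.821 CPM.

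Egr2 (ENSMUSG00000037868, chromosome 10, 67535475 to 67542188) encodes an early growth response factor of macrophages and of Schwann cells. It was at 2.83, 2.19 and 2.44 CPM in the Chow libraries and 29.9, 33.6 and 32.4 CPM in the HFD libraries, a 12.8-fold rise with tight libraries on both sides (log2 fold change 3.68 with an SE of 0.15, adjusted p = 4.57e-06 in edgeR). Ikzf1, the lymphoid and myeloid factor Ikaros, rose from 12.2 ± 3.04 to 32.04 ± 2.75 CPM. Runx1, a factor of blood cells, rose from 20.5 ± 4.74 to 62.8 ± 4.70 CPM and its partner Cbfb from 33.5 ± 1.84 to 85.1 ± 3.79 CPM. In the list of PRDM, IKZF, GLI, SNAI, EGR and BCL zinc finger factors, which holds Egr2 and Ikzf1, 15 of 35 fell, 3 rose and 17 did not pass. Zbtb16, which encodes PLZF, a factor induced by glucocorticoids, was at 469, 703 and 869.7 CPM in the Chow libraries and 116, 124 and 115 CPM in the HFD libraries. Even the lowest Chow library was well above the highest HFD library (log2 fold change -2.52 with an SE of 0.22, adjusted p = 4.98e-05 in edgeR). Prdm16, the regulator of brown and beige fat, fell from 14.7 ± 11.9 to 3.94 ± 0.861 CPM, but without Chow 17 its log2 fold change was -0.99 against -1.91 with all libraries.

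**Figure D2:**
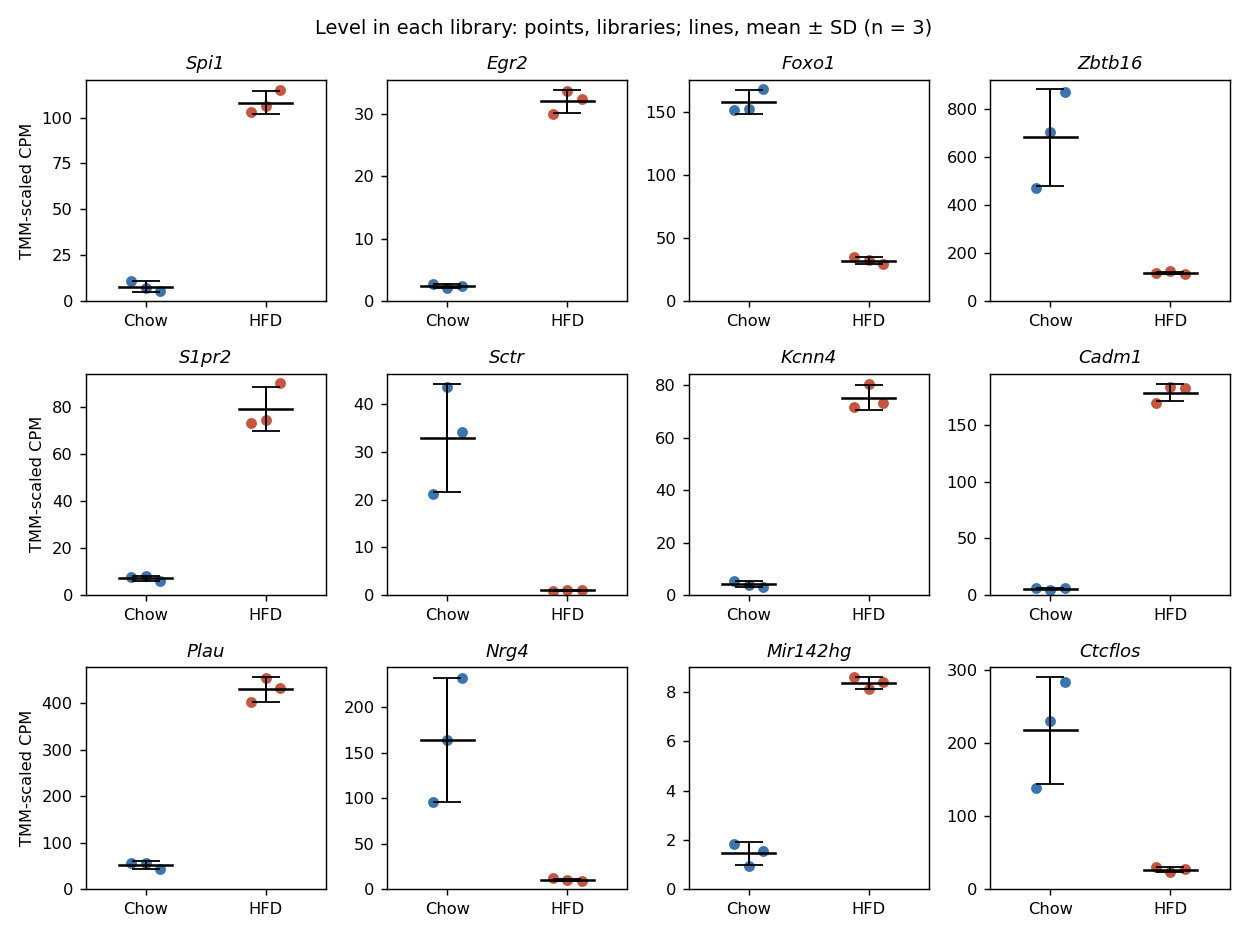
Level in TMM-scaled CPM of 12 genes in each of the 6 libraries, with points for libraries and black lines for the mean and SD of each group (n = 3), on axes that start at 0. In each panel the Chow and HFD points do not overlap.

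The architectural proteins of the HMGA family, which bend DNA and are abundant in embryonic and dividing cells, rose. Hmga1 was at 9.90, 9.84 and 8.87 CPM in the Chow libraries and 79.5, 75.4 and 74.3 CPM in the HFD libraries (log2 fold change 2.997 with an SE of 0.11, adjusted p = 3.45e-06 in edgeR). Hmga2 had 2 counts over the 3 Chow libraries and 1311 over the 3 HFD libraries, which after scaling is a ratio of 303 (95% interval of the counting error alone 83.7 to 2505). In the same list 18 of 31 members fell, among them Ebf2, a factor of adipocyte precursors and brown fat, from 51.5 ± 12.8 to 15.5 ± 1.76 CPM. Tead4, a partner of the Hippo pathway coactivators, fell from 19.9 ± 3.78 to 3.80 ± 0.596 CPM, and Tcf7l1, an effector of Wnt signalling, from 21.3 ± 4.62 to 4.49 ± 0.247 CPM.

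HOX genes mark the position of a tissue along the body axis and keep that pattern in adult fat. Of 27 listed, 21 passed the filter on low counts and 18 of those fell, with 0 rising (median log2 fold change -1.39). The count of falls was 16 to 18 with 1 library left out. All 4 clusters shared in it: 4 of 6 tested genes fell in cluster A on chromosome 6, 7 of 8 in cluster B on chromosome 11, 5 of 5 in cluster C on chromosome 15 and 2 of 2 in cluster D on chromosome 2. Cluster C summed to 67.4 to 85.4 CPM in Chow and 18.4 to 19.2 CPM in HFD. Among the genes that fell, Hoxa3 (27.1%), Hoxa7 (20.4%), Hoxb2 (27.3%) and Hoxb3 (52.9%) overlap other annotated exons in part of their exon sequence. Their values are uncertain.

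Hoxc8 (ENSMUSG00000001657, chromosome 15, 102990607 to 102994111) had the highest level per kilobase of exon of the HOX genes in Chow. It was at 39.8, 44.8 and 46.003 CPM in the Chow libraries and 8.14, 7.29 and 8.12 CPM in the HFD libraries. The libraries of each group lay close together and far from those of the other (log2 fold change -2.47 with an SE of 0.12, adjusted p = 5.65e-06 in edgeR). Hoxa5, a HOX gene of many fat depots, fell from 8.90 ± 2.18 to 3.33 ± 0.252 CPM, and Hoxb8 had the largest fall, from 1.87 ± 0.831 to 0.208 ± 0.104 CPM. Among the 3 tested members that did not pass were Hoxa4 and Hoxb7, both named after their values were seen, with log2 fold changes of -0.85 and -0.30. Of the exon sequence of Hoxa4 15.998% overlaps other annotated exons, most of all those of Gm29430. Hoxa4 passed without Chow 17 (-1.099). Hoxb7 was at 2.06 ± 0.130 CPM on the high-fat diet against 2.57 ± 0.785 CPM on chow, while its neighbours Hoxb6 and Hoxb8 fell. Hoxc10, which marks subcutaneous fat, reached at most 0.111 CPM and was listed at 0 in HFD.

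**Figure D3:**
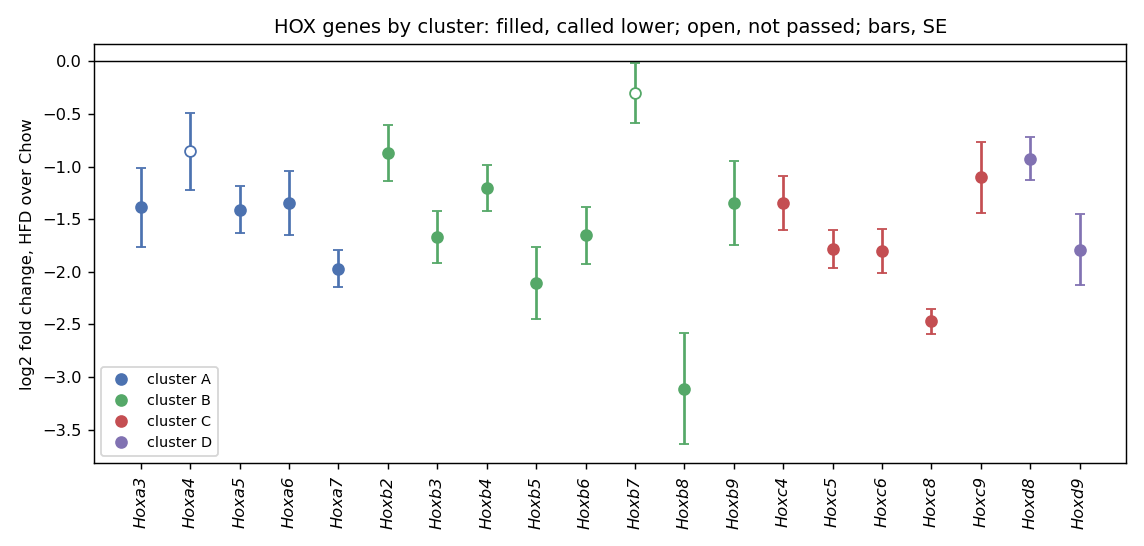
Log2 fold change of HFD over Chow for the tested HOX genes shown, ordered by cluster (colour) and by position number, with bars for the SE, filled points for genes called lower and open points for genes that did not pass. All points lie below 0, from -0.30 for Hoxb7 to -3.11 for Hoxb8.

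Homeobox genes outside the HOX clusters fell in 21 of 42 cases and rose in 9. Irx3, a gene whose locus is linked to obesity, fell from 7.43 ± 1.55 to 1.66 ± 0.407 CPM, and Lhx6 fell from 15.8 ± 6.13 to 2.89 ± 0.282 CPM. The mesenchymal factor Prrx1, found in fibroblasts and progenitors, rose instead from 26.8 ± 4.71 to 73.7 ± 10.8 CPM, and its relative Prrx2 rose from 0.296 ± 0.0675 to 3.07 ± 0.467 CPM. Pou3f1, a POU factor known from Schwann cells and skin, had no count in Chow and 223 counts over the 3 HFD libraries, at least 34.4-fold higher when the Chow group is set to 3 counts.

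Among SOX factors 7 of 10 fell and 1 rose. Sox6, a factor of cell fate, was at 44.99, 63.8 and 62.5 CPM in the Chow libraries and 9.50, 9.34 and 8.56 CPM in the HFD libraries (log2 fold change -2.64 with an SE of 0.16, adjusted p = 1.12e-05 in edgeR). Sox7, Sox17 and Sox18, the members of the endothelial subgroup, fell by 3.86, 1.84 and 1.597 on the log2 scale, as did all 7 endothelial markers, whose sum was 906 to 1008 CPM in Chow and 408 to 411 CPM in HFD. For Sox7 the log2 fold change without Chow 19 was -3.17. The value of Sox17 is uncertain, as 16.8% of its exon sequence overlaps other annotated exons, most of all those of Gm37587. Sox17 and Sox18 were added after their values were seen. Sox4 rose from 10.02 ± 1.81 to 43.5 ± 5.89 CPM, but 54.6% of its exon sequence overlaps other annotated exons, most of all those of Gm26735. Sox4 cannot be told apart from this overlapping annotation.

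Foxo1 (ENSMUSG00000044167, chromosome 3, 52268336 to 52353221), the forkhead factor that insulin holds out of the nucleus, was at 151.5, 152.3 and 168 CPM in the Chow libraries and 34.9, 32.3 and 29.1 CPM in the HFD libraries. Its libraries were tight in both groups (log2 fold change -2.29 with an SE of 0.11, adjusted p = 6.47e-06 in edgeR). Of 15 forkhead factors 6 fell and 3 rose. Foxm1, which drives the genes of cell division, rose from 3.17 ± 0.955 to 9.29 ± 0.814 CPM, and Foxp1, at 89.5 ± 2.52 CPM on the high-fat diet against 79.3 ± 18.4 CPM on chow, did not reach the threshold (adjusted p by edgeR = 0.386). Among the KLF and SP factors 6 of 18 fell and 3 rose, with 10 falling under upper quartile scaling and 1 rising without HFD 38. Klf15, a factor of fasting metabolism and adipocyte differentiation, fell from 91.1 ± 30.7 to 15.3 ± 1.43 CPM, and Klf14, a regulator of fat cell genes, from 6.65 ± 2.73 to 2.09 ± 0.460 CPM. Klf10, induced by TGF-beta, rose from 45.8 ± 1.87 to 69.9 ± 2.67 CPM, and Klf4 was at 41.4 ± 3.73 CPM on the high-fat diet against 47.7 ± 5.39 CPM on chow without reaching the threshold (adjusted p by edgeR = 0.181). Of 6 T-box factors 3 fell and 0 rose. Tbx3, a developmental repressor, fell from 24.6 ± 11.4 to 3.78 ± 0.323 CPM. Tbx18, a factor of pericytes and mesothelium, was at 6.09 ± 1.04 CPM on the high-fat diet against 6.20 ± 0.983 CPM on chow. It did not reach the threshold (adjusted p by edgeR = 0.915), and 20.6% of its exon sequence overlaps other annotated exons, most of all those of D030062O11Rik. Of 9 GATA and RUNX factors 3 rose and 5 fell, or 3 fell without Chow 17, without HFD 4 or with DESeq2. Gata6, a factor of smooth muscle and of resident peritoneal macrophages, fell from 15.5 ± 6.48 to 5.82 ± 0.563 CPM, and Gata2, a factor of endothelium and mast cells, from 9.10 ± 3.44 to 3.07 ± 1.09 CPM.

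The subunits of the hypoxia-inducible factors, which respond to low oxygen, changed in opposite directions. Epas1, which encodes HIF-2 alpha and is high in endothelium and adipocytes, was at 492, 662 and 572 CPM in the Chow libraries and 125, 160.2 and 152.5 CPM in the HFD libraries (log2 fold change -1.98 with an SE of 0.16, adjusted p = 3.46e-05 in edgeR). Hif3a, a member with inhibitory forms, fell from 35.4 ± 8.08 to 3.01 ± 0.950 CPM, while Hif1a rose from 89.6 ± 14.8 to 128 ± 3.90 CPM (adjusted p = 0.0109 in edgeR). Counted per kilobase of exon, Epas1 made up 79.3% to 85.8% of the 3 subunits in Chow and 51.1% to 55.7% in HFD. Hif1a made up 10.3% to 15.8% in Chow and 43.3% to 47.7% in HFD. Of 43 basic helix-loop-helix factors 13 rose and 17 fell, with 8 rising without HFD 30. Mycl, a relative of Myc, fell from 46.9 ± 14.3 to 3.97 ± 0.694 CPM, and Id2, which blocks the binding of such factors to DNA, rose from 5.13 ± 2.08 to 29.2 ± 2.47 CPM.

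Receptors for lipids, nucleotides and metabolites were the receptor list that rose most often, with 18 of 44 rising and 13 falling (median log2 fold change 0.58). S1pr2 (ENSMUSG00000043895, chromosome 9, 20962361 to 20976781), a receptor of the blood lipid sphingosine 1-phosphate, was at 7.499, 8.12 and 5.88 CPM in the Chow libraries and 73.5, 74.4 and 90.1 CPM in the HFD libraries. Each HFD library was above every Chow library (log2 fold change 3.46 with an SE of 0.16, adjusted p = 5.59e-06 in edgeR). Cnr2, the cannabinoid receptor of immune cells, rose from 2.83 ± 0.970 to 30.2 ± 0.753 CPM, and Gpr183, which senses oxysterols and guides immune cells, from 1.72 ± 0.437 to 15.5 ± 1.95 CPM. Ffar4, the long-chain fatty acid receptor also called GPR120, fell from 16.97 ± 4.30 to 2.34 ± 0.347 CPM, Hcar2, the receptor of ketone bodies and niacin that restrains lipolysis, from 10.22 ± 1.29 to 4.43 ± 0.649 CPM, and Gpr4, a proton sensor of endothelium, from 12.5 ± 2.07 to 1.58 ± 0.438 CPM.

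Receptors for amines and peptides fell more often, in 19 of 41 cases, with 11 rises. Sctr (ENSMUSG00000026387, chromosome 1, 120006894 to 120063536), the receptor of the gut hormone secretin, was at 21.1, 43.6 and 34.1 CPM in the Chow libraries and 0.919, 1.13 and 1.097 CPM in the HFD libraries. The Chow libraries were spread, but none came near the HFD level (log2 fold change -4.97 with an SE of 0.31, adjusted p = 1.22e-05 in edgeR). Gcgr, the glucagon receptor, fell from 6.34 ± 1.34 to 0.402 ± 0.182 CPM, and Ednrb, an endothelin receptor, from 122 ± 9.17 to 62.9 ± 5.67 CPM. Htr2b, a serotonin receptor, rose from 0.453 ± 0.483 to 29.2 ± 2.88 CPM, and its log2 fold change of 6.18 became 7.27 without Chow 19. However, 11.8% of its exon sequence overlaps other annotated exons, most of all those of Psmd1. Sstr2, a somatostatin receptor, had no count in Chow and 229 counts over the 3 HFD libraries, at least 35.3-fold higher against the same floor of 3 counts. Npy1r, a receptor of neuropeptide Y, was at 2.70 ± 0.413 CPM on the high-fat diet against 1.55 ± 0.817 CPM on chow and missed the threshold with all libraries (adjusted p by edgeR = 0.106), but reached it without Chow 8 (log2 fold change 1.23).

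Orphan receptors rose in 13 of 33 cases and fell in 10, or 6 without HFD 4 or HFD 30. Gpr176 rose from 0.285 ± 0.152 to 10.7 ± 1.08 CPM. Mrgprb1, a mast cell receptor gene, rose from 0.168 ± 0.226 to 12.6 ± 1.82 CPM with the mast cell markers, and without Chow 8 its log2 fold change was 7.94 in place of 5.99. The summed level of the mast cell markers was 19.2 to 32.97 CPM in Chow and 206 to 285 CPM in HFD. Most of the Chow sum was Kit, the marker that did not pass, at 22.3 ± 4.07 CPM in Chow and 22.5 ± 2.50 CPM in HFD.

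Receptor tyrosine kinases, the receptors of most growth factors, fell in 18 of 35 cases and rose in 9 (median -1.01). The count of rises was 5 without HFD 4 or without HFD 30. Mst1r, the receptor of macrophage-stimulating protein, was at 38.9, 155 and 112 CPM in the Chow libraries and 11.2, 11.7 and 12.3 CPM in the HFD libraries. Chow 17 stood highest in its group, yet all Chow libraries exceeded all HFD libraries (log2 fold change -3.11 with an SE of 0.44, adjusted p = 4.85e-04 in edgeR). Insr, the insulin receptor, fell from 396 ± 77.7 to 126 ± 2.11 CPM, Ntrk2, a receptor of brain-derived neurotrophic factor, from 185 ± 19.004 to 57.9 ± 6.60 CPM, and Fgfr1 from 257 ± 25.9 to 135.02 ± 10.7 CPM. Csf1r, the receptor through which macrophages are kept alive, rose from 152.8 ± 49.5 to 682 ± 36.7 CPM. Its value is uncertain, as 15.1% of its exon sequence overlaps other annotated exons, most of all those of Hmgxb3. Ror1, a receptor of Wnt ligands, rose from 9.73 ± 1.51 to 25.1 ± 1.92 CPM. Axl, which helps phagocytes clear dying cells, rose from 151.9 ± 24.5 to 326 ± 19.6 CPM, and Pdgfra, a receptor and marker of adipocyte progenitors, from 96.4 ± 22.8 to 206 ± 18.1 CPM. Insr, Ntrk2, Fgfr1, Pdgfra and Mertk were chosen with their values known. Mertk, another clearance receptor, was at 148 ± 7.83 CPM on the high-fat diet against 153.1 ± 23.5 CPM on chow and did not reach the threshold (adjusted p by edgeR = 0.789).

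Ephrins and their receptors signal between touching cells, for example at the border of arteries and veins, and like the endothelial markers they mostly fell. Of 13 tested 9 fell and 0 rose (median -1.26). Epha2 was at 19.95, 23.8 and 21.6 CPM in the Chow libraries and 5.82, 4.70 and 4.06 CPM in the HFD libraries (log2 fold change -2.15 with an SE of 0.17, adjusted p = 2.70e-05 in edgeR). Efna5 fell from 20.5 ± 3.63 to 4.48 ± 0.856 CPM. Efnb2, the ligand of arterial endothelium, fell from 26.5 ± 4.66 to 9.32 ± 1.17 CPM, and Ephb4, its receptor on veins, from 76.0 ± 20.8 to 25.1 ± 1.17 CPM. The 4 that did not pass, named after their values were seen, were Efna2, Efna4, Ephb1 and Ephb2, the last of these at 16.97 ± 1.62 CPM on the high-fat diet against 12.7 ± 6.51 CPM on chow. Without Chow 8, Efna4 passed as lower (log2 fold change -1.38) and Ephb2 as higher (0.91), and without HFD 38 Efna2 passed as lower (-1.22).

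Notch receptors and ligands also act between neighbouring cells, vessels among them. Of 17 tested genes of the pathway 11 fell and 3 rose. Notch1 (ENSMUSG00000026923, chromosome 2, 26457903 to 26516663) was at 224, 324 and 319 CPM in the Chow libraries and 81.4, 78.8 and 78.5 CPM in the HFD libraries (log2 fold change -1.86 with an SE of 0.16, adjusted p = 3.98e-05 in edgeR). Notch4, the endothelial receptor, fell from 147 ± 46.5 to 26.3 ± 3.41 CPM, Notch3, of pericytes and smooth muscle, from 124 ± 24.7 to 48.1 ± 5.47 CPM, and the ligands Jag2 and Dll4 from 57.6 ± 15.3 to 9.43 ± 0.294 CPM and 28.9 ± 2.28 to 8.66 ± 1.53 CPM. Notch2 to Notch4 and Dll4 were added after their values were seen, to complete the receptors and their vascular ligand. Notch2 was at 262 ± 12.4 CPM on the high-fat diet against 233 ± 42.3 CPM on chow and did not reach the threshold (adjusted p by edgeR = 0.370). Its share of the 4 receptors per kilobase of exon was 21.5% to 33.5% in Chow and 59.7% to 64.1% in HFD. Rbpj, the DNA-binding partner of all Notch receptors, rose from 67.5 ± 8.797 to 103 ± 6.60 CPM, and Lfng, an enzyme that modifies the receptors, from 19.6 ± 7.17 to 42.4 ± 0.451 CPM. Jag1 did not pass with all libraries (log2 fold change -0.41) and passed without Chow 8 (-0.60).

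Semaphorins, plexins, slits and robos guide axons and vessels, and 25 of 46 fell against 10 rises. Robo4, an endothelial receptor, was at 118, 128 and 141.1 CPM in the Chow libraries and 23.8, 26.03 and 26.2 CPM in the HFD libraries (log2 fold change -2.35 with an SE of 0.11, adjusted p = 6.01e-06 in edgeR). Sema3c was at 78.5 ± 6.63 CPM on the high-fat diet against 93.9 ± 51.0 CPM on chow without reaching the threshold (adjusted p by edgeR = 0.503). Sema4d, a semaphorin of immune cells, rose from 6.90 ± 1.93 to 76.8 ± 7.62 CPM, and Plxdc1 rose from 1.999 ± 0.515 to 31.6 ± 2.78 CPM. Nrp1, a coreceptor on vessels and macrophages, was at 308 ± 10.23 CPM on the high-fat diet against 311 ± 40.5 CPM on chow and did not reach the threshold (adjusted p by edgeR = 0.925).

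Cadherins and related adhesion molecules hold cells together. They fell in 31 of 62 cases and rose in 10. Fat3 (ENSMUSG00000074505, chromosome 9, 15910189 to 16501285), a giant atypical cadherin known from neurons, had the largest rise of the list. It was at 0.778, 0.546 and 0.776 CPM in the Chow libraries and 189.8, 233 and 206 CPM in the HFD libraries. It was low in every Chow library and high in every HFD library (log2 fold change 8.22 with an SE of 0.19, adjusted p = 8.39e-07 in edgeR). Cadm1, an adhesion molecule of mast cells and nerve, was at 6.01, 4.92 and 5.88 CPM in the Chow libraries and 169.8, 184 and 182.3 CPM in the HFD libraries, again far apart (log2 fold change 4.995 with an SE of 0.13, adjusted p = 1.28e-06 in edgeR). Cdh5, the cadherin of endothelial junctions, fell from 272 ± 14.7 to 83.7 ± 0.804 CPM. Cdh11, a cadherin of mesenchymal cells, rose from 2.07 ± 1.68 to 34.0 ± 4.36 CPM, with a log2 fold change of 3.93 that became 4.62 without Chow 8.

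Potassium channels set the membrane voltage, and 18 of 40 tested fell while 8 rose (median -0.58). Kcnn4 (ENSMUSG00000054342, chromosome 7, 24370263 to 24386690), the calcium-activated channel of immune cells, was at 5.31, 3.98 and 3.21 CPM in the Chow libraries and 71.96, 80.7 and 73.4 CPM in the HFD libraries. The 3 HFD libraries were close together and far above the Chow libraries (log2 fold change 4.15 with an SE of 0.17, adjusted p = 5.07e-06 in edgeR). Kcnab2, a channel subunit, rose from 6.36 ± 1.99 to 62.8 ± 1.32 CPM. Kcnj8, the pore of a channel that closes with ATP in pericytes, fell from 16.9 ± 2.81 to 6.18 ± 1.71 CPM.

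Sodium and calcium channels as a list were near the background, with 12 of 35 rising and 13 falling, but members of the L-type calcium channels moved apart. Cacna1c, the L-type subunit of heart and smooth muscle, was at 29.9, 48.0 and 54.8 CPM in the Chow libraries and 9.40, 11.3 and 8.45 CPM in the HFD libraries (log2 fold change -2.18 with an SE of 0.23, adjusted p = 1.10e-04 in edgeR). Cacna1d, the L-type subunit of endocrine and nerve cells, was at 10.4, 7.42 and 7.54 CPM in the Chow libraries and 42.7, 44.3 and 34.0 CPM in the HFD libraries (log2 fold change 2.25 with an SE of 0.17, adjusted p = 2.73e-05 in edgeR). Per kilobase of exon Cacna1d made up 18.8% to 36.4% of the L-type subunits in Chow and 84.5% to 86.4% in HFD. Tpcn2, a channel of lysosomes, rose from 38.8 ± 2.34 to 149.2 ± 5.35 CPM. Scn7a, a sodium-sensing channel of Schwann cells and other nonneuronal cells, fell from 443 ± 56.2 to 140.8 ± 4.24 CPM, and Cacna2d3, an accessory subunit, from 3.59 ± 0.845 to 0.0744 ± 0.0247 CPM, although Cacna2d3 had so few counts in HFD that its log2 fold change of -5.42 moved to -4.66 with thinned counts.

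Among the calcium pumps, Atp2b4 of the plasma membrane fell from 437 ± 80.5 to 65.8 ± 3.37 CPM, while Atp2a2 of the endoplasmic reticulum, at 219.7 ± 17.5 CPM on the high-fat diet against 207 ± 36.6 CPM on chow, did not reach the threshold (adjusted p by edgeR = 0.631). Atp8b4, a phospholipid flippase, rose from 17.7 ± 3.07 to 103 ± 2.47 CPM. The P-type ATPases as a list were near the background, with 8 of 30 rising and 10 falling.

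Of the chloride and proton channels 8 of 26 rose and 11 fell, and in the CLIC family members moved apart. Clic1 was at 32.8, 23.7 and 21.1 CPM in the Chow libraries and 208, 218 and 216 CPM in the HFD libraries and Clic5 at 42.9, 52.9 and 48.3 CPM in the Chow libraries and 8.37, 7.82 and 9.33 CPM in the HFD libraries, both without overlap between the groups (log2 fold changes 3.04 and -2.50). Clic1 made up 14.5% to 20.5% of the family per kilobase of exon in Chow and 61.5% to 62.8% in HFD. The families shown as shares were picked after the values were seen, so they serve as a description of how members exchanged and not as a test.

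**Figure D4:**
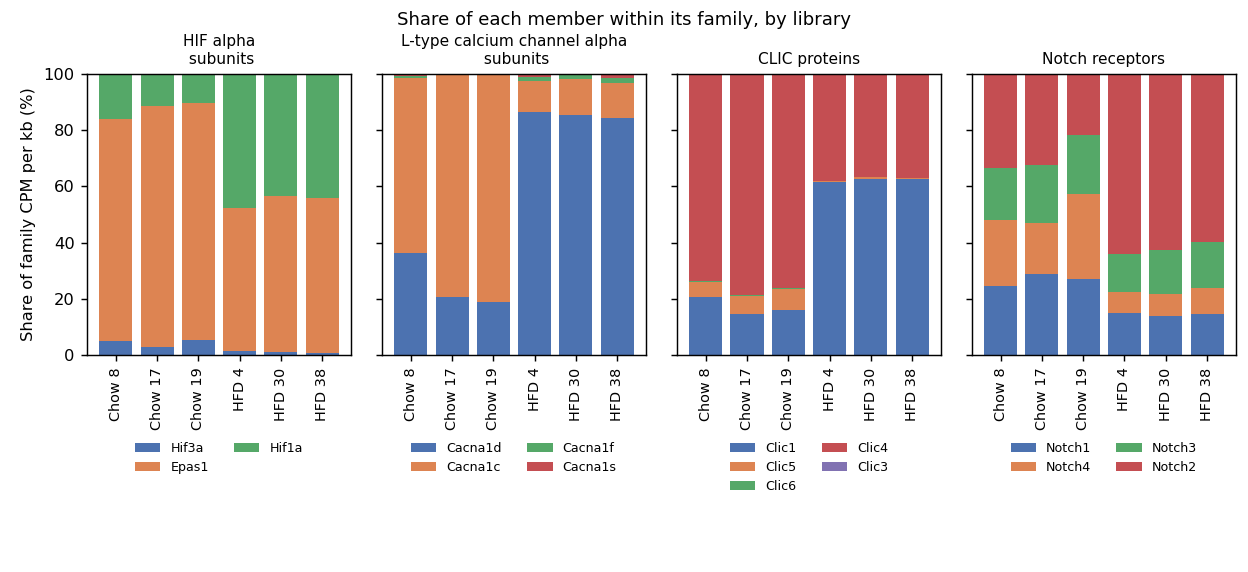
Share in percent of each member within 4 gene families, computed from CPM per kilobase of exon, in each of the 6 libraries (stacked bars, 1 colour per member). The 3 HFD bars of each family are nearly alike and differ from the 3 Chow bars, as with Epas1 at 79.3% to 85.8% in Chow and 51.1% to 55.7% in HFD.

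Ligand-gated channels rose in 5 of 18 cases and fell in 7. P2rx4, a channel opened by ATP, was at 60.5, 54.8 and 57.8 CPM in the Chow libraries and 203, 207 and 205 CPM in the HFD libraries (log2 fold change 1.83 with an SE of 0.10, adjusted p = 8.17e-06 in edgeR), and P2rx7, which triggers the inflammasome in macrophages, rose from 35.8 ± 12.4 to 79.3 ± 3.45 CPM. Panx1, the channel that lets ATP out of cells, rose from 3.88 ± 0.486 to 24.5 ± 4.13 CPM. Gabra3, a GABA receptor subunit, rose from 5.77 ± 3.34 to 17.3 ± 3.96 CPM, and Grik5, a glutamate receptor subunit, fell from 17.8 ± 8.96 to 2.46 ± 0.589 CPM. Gabrr2, a further GABA receptor subunit, fell from 11.8 ± 6.89 to 1.22 ± 0.553 CPM, with a log2 fold change of -3.24 that was -2.63 without Chow 8. TRP and mechanosensitive channels fell in 14 of 29 cases and rose in 7. Trpv2, a cation channel of macrophages, rose from 41.0 ± 9.73 to 76.9 ± 0.953 CPM, and Trpc4 rose from 0.817 ± 0.550 to 9.17 ± 1.83 CPM, with log2 fold changes of 3.40 with all libraries and 4.08 without Chow 8. Hvcn1, the proton channel that supports the phagocyte oxidase, rose from 12.4 ± 3.45 to 94.7 ± 10.8 CPM. However, 44.2% of its exon sequence overlaps other annotated exons, most of all those of Tctn1. Of the water channels and connexins 6 of 10 fell, among them Aqp1, the water channel of capillaries, from 612 ± 93.7 to 239.8 ± 15.1 CPM, Aqp7, which lets glycerol out of adipocytes, from 233 ± 24.9 to 69.6 ± 4.88 CPM, and the connexin gene Gja1 from 58.6 ± 8.801 to 37.8 ± 1.77 CPM.

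Solute carriers, the largest list, moved close to the background, with 84 of 225 rising and 65 falling. Slc2a4, the insulin-regulated glucose transporter GLUT4, fell from 70.7 ± 10.4 to 20.5 ± 1.97 CPM. Slc25a13, a mitochondrial carrier of aspartate and glutamate, rose from 1.64 ± 0.971 to 43.2 ± 3.72 CPM (log2 fold change 4.65, and 5.31 without Chow 8). Slc7a11, the cystine importer needed to make glutathione, rose from 1.58 ± 1.72 to 12.5 ± 2.77 CPM (log2 fold change 2.87, and 4.29 without Chow 8). Slc1a1, a glutamate transporter, fell from 30.1 ± 5.08 to 1.53 ± 0.421 CPM. However, 31.9% of its exon sequence overlaps other annotated exons, most of all those of 4430402I18Rik.

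Growth factors were balanced, with 12 of 39 rising and 10 falling. Nrg4 (ENSMUSG00000032311, chromosome 9, 55220222 to 55326844), a growth factor that adipocytes send to the liver, was at 96.1, 164 and 233 CPM in the Chow libraries and 11.6, 9.41 and 8.504 CPM in the HFD libraries. The HFD libraries were all below the lowest Chow library by a wide margin (log2 fold change -4.05 with an SE of 0.32, adjusted p = 3.03e-05 in edgeR). Egf fell from 11.1 ± 5.14 to 1.53 ± 0.159 CPM. Hgf, a factor of tissue repair made by mesenchymal cells, was at 7.85, 6.48 and 5.21 CPM in the Chow libraries and 43.1, 43.2 and 40.2 CPM in the HFD libraries (log2 fold change 2.68 with an SE of 0.15, adjusted p = 9.70e-06 in edgeR), and Mdk, the heparin-binding factor midkine, rose from 0.970 ± 0.227 to 7.57 ± 0.671 CPM. Gas6, the ligand of Axl, was at 145 ± 10.16 CPM on the high-fat diet against 127 ± 45.1 CPM on chow and did not reach the threshold (adjusted p by edgeR = 0.530). Angptl4, an inhibitor of lipoprotein lipase, did not pass with all libraries (log2 fold change -0.37) and passed without Chow 19 (-0.53).

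Peptide hormone genes were few and mostly low, with 7 of 24 tested rising and 9 falling. Fndc5, the gene of the irisin precursor, was at 0.283, 0.156 and 0.222 CPM in the Chow libraries and 4.87, 9.31 and 5.93 CPM in the HFD libraries (log2 fold change 4.88 with an SE of 0.43, adjusted p = 4.58e-05 in edgeR). Agt, the precursor of angiotensin, fell from 135.4 ± 14.1 to 14.2 ± 1.58 CPM, and Thpo, the growth factor of platelets, from 3.34 ± 1.29 to 0.226 ± 0.0813 CPM. Npy, the gene of neuropeptide Y, had 1 count over the 3 Chow libraries and 490 over the 3 HFD libraries, a ratio after scaling of 227 (interval 40.5 to 8965). Stc1, the glycoprotein stanniocalcin, fell from 12.2 ± 4.72 to 3.11 ± 0.723 CPM, and Adm, a peptide of vessels, was at 10.8 ± 1.404 CPM on the high-fat diet against 11.6 ± 2.01 CPM on chow and did not reach the threshold (adjusted p by edgeR = 0.600).

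Protease inhibitors and proteases rose more often than genes overall. Serpins, cystatins and related inhibitors rose in 18 of 37 cases and fell in 6, or 10 without a filter on low counts (median log2 fold change 1.22), and secreted serine proteases with coagulation factors rose in 18 of 35 and fell in 11 (median 0.89). Plau (ENSMUSG00000021822, chromosome 14, 20836660 to 20843385) encodes urokinase, the protease that makes plasmin. It was at 56.9, 55.5 and 42.2 CPM in the Chow libraries and 402, 455 and 433 CPM in the HFD libraries. The groups were far apart (log2 fold change 3.06 with an SE of 0.15, adjusted p = 6.64e-06 in edgeR). Cst3, an inhibitor of cathepsins, rose from 281 ± 122 to 664 ± 3.98 CPM. Serpinb9b rose from 0.542 ± 0.581 to 68.1 ± 11.6 CPM (log2 fold change 6.80, and 8.20 without Chow 8), and Serpinb1c had 1 count over Chow and 455 over HFD. Cma1, a chymase of mast cells, rose from 0.898 ± 0.792 to 61.4 ± 10.5 CPM, with a log2 fold change of 5.96 that was 6.94 without Chow 8. F3, the tissue factor that starts clotting, rose from 21.9 ± 0.826 to 33.5 ± 6.32 CPM, and Pcsk6, a convertase of secreted precursors, fell from 88.7 ± 16.03 to 15.7 ± 1.37 CPM.

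S100 proteins, galectins and secreted lipases rose in 19 of 39 cases and fell in 9. Lgals3, galectin-3, was at 169, 90.6 and 56.8 CPM in the Chow libraries and 2372, 2507 and 2651 CPM in the HFD libraries (log2 fold change 4.57 with an SE of 0.40, adjusted p = 4.76e-05 in edgeR), while Lgals12, a galectin of lipid droplets, fell from 204 ± 58.7 to 31.9 ± 2.49 CPM. Retnla, a product of alternatively activated macrophages, fell from 107 ± 93.3 to 6.74 ± 2.11 CPM, and its log2 fold change of -3.98 was -2.99 without Chow 8. Lipid carriers were split, 8 higher and 9 lower of 21. Fabp7, a fatty acid binding protein of brain, rose from 0.516 ± 0.105 to 6.96 ± 1.39 CPM, Rbp7, a retinol carrier, fell from 90.2 ± 13.5 to 15.7 ± 2.29 CPM, Rbp4, the retinol carrier of blood, from 215 ± 42.5 to 24.5 ± 1.64 CPM, and Apoe, at 1636 ± 198 CPM on the high-fat diet against 1799.7 ± 356 CPM on chow, did not reach the threshold (adjusted p by edgeR = 0.587).

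Noncoding genes leaned to falls. Of 1147 tested genes with a long noncoding biotype in GENCODE, 445 (38.8%) fell and 145 (12.6%) rose, with a median log2 fold change of -0.55. For protein-coding genes the numbers were 3793 and 4513 of 13414 (median 0.06). Among the 1194 protein-coding genes no more abundant than the typical long noncoding gene, 279 fell and 288 rose (median 0.01), so the lean was not seen in these coding genes. They are not matched in level, as their median mean level was 1.08 CPM against 1.83 CPM for the long noncoding genes. Small noncoding genes fell in 51 of 150 cases and rose in 16. Long noncoding genes took 5.87%, 5.95% and 9.15% of the counts in Chow and 2.51% to 2.74% in HFD, highest in Chow 19, the library with the most mitochondrial ribosomal RNA. With mitochondrial counts left out, the shares were 6.33%, 6.65% and 12.99% in Chow and 2.57% to 2.82% in HFD. Without Chow 19, 427 long noncoding genes fell and 169 rose. With the mitochondrial and ribosomal RNA genes left out, 464 fell and 145 rose.

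**Figure D5:**
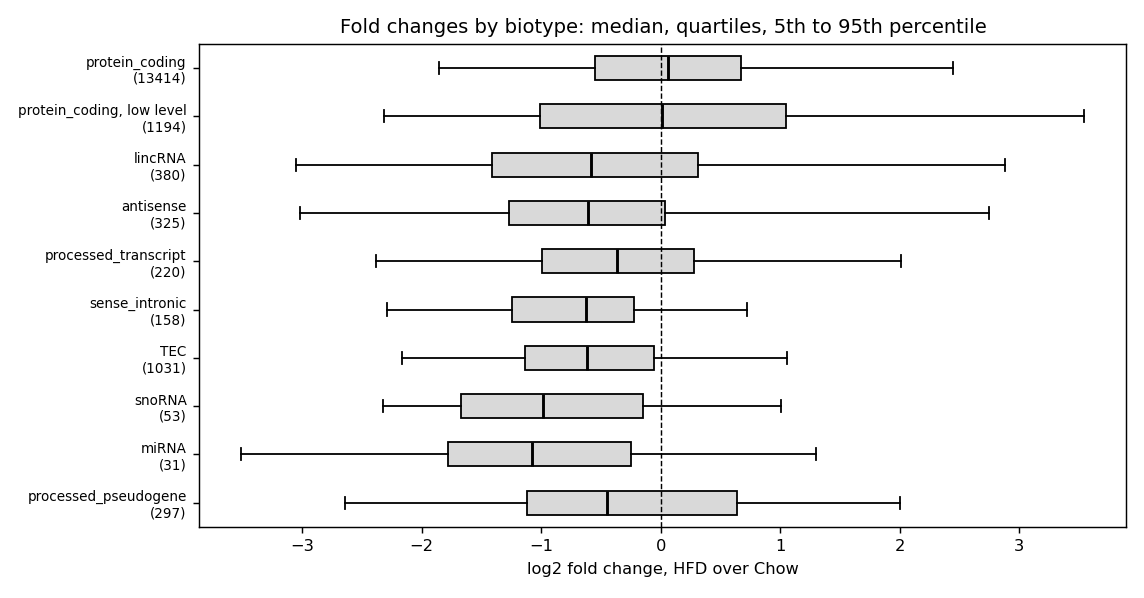
Log2 fold change of HFD over Chow for tested genes of each biotype, with boxes for the quartiles, black lines for the median and whiskers from the 5th to the 95th percentile, and the number of genes in brackets. "Low level" marks protein-coding genes at or below the median level of tested long noncoding genes, whose median is 0.01, while the long noncoding biotypes have medians from -0.37 to -0.62. TEC stands for loci that GENCODE lists as still to be checked by experiment.

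Named long noncoding genes moved in both directions. Host genes of small nucleolar RNAs rose in 2 of 18 cases and fell in 5, or 3 without Chow 19, HFD 30 or HFD 38. The rises numbered 4 without Chow 19 and 1 without Chow 17, HFD 4 or HFD 30 or under upper quartile scaling. Imprinted and dosage noncoding genes rose in 2 of 10 (5 without Chow 17 and 4 without a filter on low counts) and fell in 3, and other long noncoding genes with a described role rose in 5 of 22 (3 without HFD 30) and fell in 7 (11 without Chow 8 or without a filter on low counts). Ctcflos (ENSMUSG00000087382, chromosome 2, 173110818 to 173133204), an antisense transcript at the gene Ctcfl, was at 138.7, 229.7 and 283 CPM in the Chow libraries and 29.6, 23.3 and 26.6 CPM in the HFD libraries (log2 fold change -3.03 with an SE of 0.26, adjusted p = 3.92e-05 in edgeR). Snhg11, a host of small nucleolar RNAs, fell from 140.8 ± 68.9 to 12.3 ± 1.86 CPM, Firre, which shapes chromatin in the nucleus, from 134 ± 53.2 to 33.3 ± 3.23 CPM, and Carmn, an RNA of smooth muscle and cardiac precursors, from 59.8 ± 27.3 to 9.20 ± 0.0824 CPM. Norad, which binds Pumilio proteins and is among the more stable noncoding RNAs, rose from 136 ± 7.25 to 221 ± 10.1 CPM. Rian, a maternally expressed RNA of the imprinted Dlk1 region, was at 23.8, 22.3 and 22.2 CPM in the Chow libraries and 67.5, 74.8 and 69.5 CPM in the HFD libraries (log2 fold change 1.63 with an SE of 0.10, adjusted p = 1.19e-05 in edgeR), while its neighbour Meg3 was at 53.4 ± 4.82 CPM on the high-fat diet against 43.8 ± 5.11 CPM on chow and missed the threshold with all libraries (adjusted p by edgeR = 0.0756), but reached it without Chow 17 (log2 fold change 0.37) and with DESeq2. H19 rose from 0.110 ± 0.0317 to 1.74 ± 0.156 CPM, and Peg13, a paternally expressed RNA, fell from 79.9 ± 6.49 to 31.3 ± 1.15 CPM.

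Antisense RNAs are read from the strand opposite a gene. For 52 pairs both genes were tested, and in 20 both were called: 4 pairs rose together, 11 fell together and 5 went opposite ways. Sox6os fell from 3.26 ± 0.259 to 0.430 ± 0.0463 CPM with Sox6, and Tbx3os1 from 1.90 ± 0.891 to 0.252 ± 0.0286 CPM with Tbx3. No exon base of Sox6os overlaps another gene, while 3.63% of Tbx3os1 does. Peak1os rose from 0.172 ± 0.151 to 4.43 ± 0.124 CPM, and Rptoros had no count in Chow and 190 counts over the 3 HFD libraries. Dnmt3aos rose from 0.212 ± 0.368 to 7.65 ± 0.987 CPM, with counts in Chow 8 only among the Chow libraries and with a log2 fold change of 4.93 that was 10.26 without Chow 8 and 4.32 without Chow 17, beside a rise of the DNA methyltransferase gene Dnmt3a from 102 ± 12.6 to 299.9 ± 38.7 CPM. Bach2os rose from 0.276 ± 0.252 to 2.26 ± 0.280 CPM (log2 fold change 3.004, 3.98 without Chow 8 and 2.39 without Chow 17) while Bach2 fell. Of the exon sequence of Bach2os 24.6% overlaps other annotated exons, those of Bach2 among them. Bach2os was picked after its values were seen. The sources used here do not give whether reads were counted by strand, so a pair is uncertain where its exons overlap.

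MicroRNAs are short RNAs that lower the output of messenger RNAs matching their seed, bases 2 to 8. These libraries were counted by gene, so they show reads on the host gene or hairpin and not the mature microRNA. Of 45 tested noncoding host genes 8 rose and 14 fell. The mature sequences of the microRNAs at the loci described next are given from RefSeq (GRCm38.p6), 5′ to 3′, with the seed in capitals. They show which loci share a seed.
miR-221-3p: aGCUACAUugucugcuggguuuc
miR-222-3p: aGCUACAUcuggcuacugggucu
miR-142a-3p: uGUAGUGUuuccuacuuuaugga
miR-142a-5p: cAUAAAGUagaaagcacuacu
miR-223-3p: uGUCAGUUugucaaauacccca
miR-365-3p: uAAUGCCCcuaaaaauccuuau
miR-100-5p: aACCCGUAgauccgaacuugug
miR-125b-5p: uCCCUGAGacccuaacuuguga

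The seed of miR-221-3p and miR-222-3p is the same, GCUACAU, and their genes lie side by side on the minus strand of chromosome X, at chrX:19146307-19146329 and chrX:19146901-19146923 for the mature forms. Reads on Mir221 were at 0.212, 0.234 and 0 CPM in the Chow libraries and 2.66, 2.32 and 3.35 CPM in the HFD libraries (log2 fold change 4.01 with an SE of 0.50, adjusted p = 2.60e-04 in edgeR). The HFD libraries all exceeded the Chow libraries, of which Chow 19 had no read. Mir142hg (ENSMUSG00000084796, chromosome 11, 87755577 to 87757270) holds the gene of miR-142, a microRNA of blood cells, whose 2 mature arms have different seeds. It was at 1.84, 0.937 and 1.55 CPM in the Chow libraries and 8.61, 8.11 and 8.39 CPM in the HFD libraries. All HFD libraries lay within a narrow range above the Chow libraries (log2 fold change 2.53 with an SE of 0.25, adjusted p = 8.35e-05 in edgeR). The host of miR-223, another microRNA of myeloid cells, is listed as F630028O10Rik and was picked after its values were seen. Its level was 21.1, 2.73 and 8.42 CPM in the Chow libraries and 55.3, 45.8 and 42.6 CPM in the HFD libraries, with Chow 8 well above the other Chow libraries (log2 fold change 2.14 with an SE of 0.54, adjusted p = 0.00923 in edgeR, and 3.20 without Chow 8).

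Other microRNA loci fell. Mir365-2 was at 1.84, 3.04 and 2.11 CPM in the Chow libraries and 0.408, 0.199 and 0.384 CPM in the HFD libraries (log2 fold change -2.82 with an SE of 0.38, adjusted p = 3.70e-04 in edgeR), with its mature 3p form at chr11:79726467-79726488. Mir100hg, the host of miR-100 and of 1 copy of miR-125b, fell from 34.0 ± 6.80 to 19.1 ± 2.75 CPM, and the seeds of these 2, ACCCGUA and CCCUGAG, differ. Mir17hg, the host of the miR-17 cluster, was at 4.83 ± 0.297 CPM on the high-fat diet against 4.01 ± 1.42 CPM on chow. It did not reach the threshold (adjusted p by edgeR = 0.418), and 15.2% of its exon sequence overlaps other annotated exons, Mir20a having the largest part. Mir6236, annotated as a microRNA, was at 647, 319 and 964 CPM in the Chow libraries and 57.1, 38.6 and 21.3 CPM in the HFD libraries. Its groups did not overlap (log2 fold change -4.04 with an SE of 0.49, adjusted p = 2.23e-04 in edgeR). It was highest in Chow 19, the library with the most mitochondrial ribosomal RNA, whose part in this value was not tested. Among other small noncoding genes, Rny3, a Y RNA, rose from 23.9 ± 0.449 to 51.7 ± 18.2 CPM, and the small nucleolar RNA Snord89 from 0.706 ± 0.342 to 2.11 ± 0.224 CPM.

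Promoters were read for letters that transcription factors bind, since Spi1 rose. In RefSeq (GRCm38.p6) a promoter of 27025 gene symbols was given as 250 bases before to 50 after the start, and 13 letter strings were searched on both strands, chosen with the results known. GAGGAAGT, a string of the kind PU.1 and other ETS factors bind, occurred in 3.69% of all promoters. It was in 3.89% of the 11236 tested genes with a promoter, in 58 of 769 (7.54%) that rose at least 4-fold and in 9 of 455 (1.98%) that fell at least 4-fold. TGACTCA, a string of AP-1 factors, was in 4.80%, 8.84% and 6.37% of the same groups. TCACGTGA, a string of MiT/TFE factors that holds the shorter CACGTG, was in 2.06%, 1.69% and 0.220%. Against the tested genes, the excess among genes that rose was not shared by GGAAGTG. This other ETS string overlaps GAGGAAGT in part and was in 16.7%, 14.6% and 10.8%. An excess against the tested genes was also seen with TATAAA, a core promoter string, in 9.40%, 16.3% and 11.4%. It was seen with AGATAA, a string of factors such as Gata2 and Gata6, in 8.14%, 11.1% and 7.91%. Over all promoters the shares were 5.95% for TGACTCA, 12.5% for GGAAGTG, 15.7% for TATAAA and 12.7% for AGATAA. Set against all promoters, genes that rose held AGATAA less often, TATAAA and GGAAGTG slightly more often, and TGACTCA and GAGGAAGT more often. The E-box CACGTG was in 11.4%, 9.49% and 9.23% and GGGCGG, a string of SP factors, in 66.1%, 49.5% and 57.6%. TGTTTAC, a forkhead string, was in 3.16%, 2.86% and 3.74%, and the 4 strings not listed here were each in fewer than 1% of the tested genes. The shares were not tested, and a match is a run of letters and not a shown binding site. Of the 144 genes chosen to be named that were called and have a promoter, at least 4 hold GAGGAAGT or its reverse complement before the start. Matches in part of the genome were left out of the 4 but not of the 144, so 4 is a lower bound. It also covers only the 250 bases before the start, while the shares above cover the whole window of 300 bases. The count can therefore not be set against those shares. The reverse complement reads ACTTCCTC. These windows show that the letters stand at genes of both directions, with the match in capitals and each read along the strand of its gene.
Trpv2, rose, chr11:62574452-62574499, plus strand: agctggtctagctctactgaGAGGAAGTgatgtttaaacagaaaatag
Atp8b4, rose, chr2:126491641-126491688, minus strand: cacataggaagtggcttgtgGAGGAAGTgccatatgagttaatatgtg
Ffar4, fell, chr19:38096926-38096973, plus strand: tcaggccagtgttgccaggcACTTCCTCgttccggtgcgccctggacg
Retnla, fell, chr16:48842391-48842438, plus strand: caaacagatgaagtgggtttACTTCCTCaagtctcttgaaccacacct

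The other 6 libraries of the study came from obese mice on the same high-fat diet that were also injected once a day for 4 days, with PCN (50 mg/kg) or with its vehicle. They are given side by side without a test, as unscaled CPM from their own table. Hoxc8 was at 13.7, 28.1 and 9.002 unscaled CPM in HFD Vehicle 23, 50 and 55 and 13.7, 29.1 and 17.3 in HFD PCN 5, 11 and 27, against 8.03 to 8.89 in HFD and 35.5 to 42.8 in Chow on the same unscaled CPM. Spi1 was at 96.6, 16.6 and 126 unscaled CPM in HFD Vehicle 23, 50 and 55 and 107, 59.02 and 71.8 in HFD PCN 5, 11 and 27, against 112 to 126 in HFD and 4.27 to 11.5 in Chow. Foxo1 was at 57.9, 175 and 41.3 unscaled CPM in HFD Vehicle 23, 50 and 55 and 41.9, 113 and 83.3 in HFD PCN 5, 11 and 27, against 31.9 to 37.9 in HFD and 129.6 to 155.6 in Chow. Among the 3 vehicle libraries HFD Vehicle 50 was nearest to the Chow values in each of these 3 genes.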

How the data were processed

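RNA from 12 samples was sequenced, and the 6 libraries of the Chow and HFD groups were compared here. The injected libraries are given beside them only where named. The authors deposited whole-number counts per gene with the samples named in the columns, and 0 columns of per-sample values had no matching sample. The tools named in the submitters' processing notes are HISAT2, HTSeq and DESeq2, and the build is GRCm38 (mm10), with versions and strand settings not given in the sources used here.

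The deposited counts were tested with edgeR 4.0.16 in R 4.3.3 (TMM scaling, filterByExpr, quasi-likelihood test without covariates, Benjamini-Hochberg adjustment over 16216 genes, threshold 0.05). Each SE is the absolute log2 fold change divided by the square root of the F statistic of this test, so it restates that statistic. DESeq2 1.42.0, limma 3.58.1 (voom), other scalings, other filters on low counts, thinned counts, leaving out 97 mitochondrial and ribosomal RNA genes, and leaving out each library were the alternatives. On simulated counts for 15970 genes of this comparison edgeR recovered 59.6% of 2-fold and 94.7% of 4-fold changes, with 5.7% false calls. There only 99 genes changed 2-fold and 95 changed 4-fold, and both groups had the same spread. In the data most genes were called and the Chow libraries varied more, so these rates may not carry over. The chi-square per degree of freedom between libraries was 57.1 to 208 within Chow and 6.91 to 9.50 within HFD, so none is a repeated library. The 95% intervals and the floor of 3 counts over a group cover counting error only.

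Biotypes and exon overlap came from GENCODE vM21 (GRCm38), where 30315 of 30327 gene IDs were found. Coordinates are on GRCm38 and sequences are from RefSeq GRCm38.p6. The members, the 39 lists, the cell markers and the tests were chosen with earlier results of these data known, and the apolipoprotein list was corrected after values were seen. Named from each list were the 2 largest rises and the 2 largest falls among called genes with a mean of at least 1 CPM whose groups did not overlap, and fixed examples whatever their result. By biotype 4 rises and 4 falls with named symbols and 2 of each with predicted names and at least 5 CPM were taken. Fli1, Tfeb, Tfe3, Hoxb6 and Dnmt3a were added after their values were seen, besides those said so in the text. Overlap above 10% of a gene's exon sequence marks it as uncertain. This percent covers the exons of all other genes together, on either strand. Some genes that the rule selects are not reported here.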

Additional observations from a re-analysis of the deposited data

How the results depend on the processing

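Over all genes, 4107 to 5491 rose and 3846 to 5398 fell when 1 library was left out, and the median log2 fold change was -0.13 with upper quartile scaling against -0.03 with TMM. No value of the 248 tested genes in question changed sign past the threshold under any alternative run. Under the alternatives that kept all libraries, 6 of these genes lost a call at least once and 5 gained one. With 1 library left out, 13 lost and 11 gained a call. Of 624 list counts under the same alternatives 616 stayed within 1.5 times of the value reported, and with 1 library left out 441 of 468 did. Without a filter on low counts, where more genes are tested, 250 long noncoding genes rose in place of 145, 28 small noncoding genes rose in place of 16 and 112 fell in place of 51. With DESeq2 83 small noncoding genes fell, and with 1 library left out 34 to 78 did, the highest without Chow 8 and the lowest without HFD 4. The cause was not tested. Counts limit the genes with 3 or fewer reads over a group, for which only bounds or wide intervals are given. No paired analysis was possible because the 2 groups share no library number.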

Other observations

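Among noncoding genes known only by predicted or clone names, some of the changes were large. Gm17749 was at 0.354, 0.156 and 0 CPM in the Chow libraries and 10.6, 12.6 and 13.4 CPM in the HFD libraries (log2 fold change 5.94, and 6.98 without Chow 8), and 4930430E12Rik at 0.212, 0.625 and 0.111 CPM in the Chow libraries and 14.2, 17.1 and 22.4 CPM in the HFD libraries (log2 fold change 5.72, and 6.65 without Chow 17). In the other direction, Gm40761 was at 7.004, 82.4 and 14.9 CPM in the Chow libraries and 0.579, 0.596 and 0.768 CPM in the HFD libraries, with Chow 17 far above the other Chow libraries (log2 fold change -5.77, and -4.06 without Chow 17). 2010016I18Rik was at 33.9, 69.6 and 122 CPM in the Chow libraries and 4.73, 3.71 and 3.40 CPM in the HFD libraries (log2 fold change -4.23 with an SE of 0.45, adjusted p = 1.17e-04 in edgeR). Of its exon sequence 11.01% overlaps other annotated exons, most of all those of Dennd2d. Ifi30, which encodes a lysosomal thiol reductase but carries a noncoding biotype in the annotation, was at 24.8, 15.5 and 10.9 CPM in the Chow libraries and 217, 184 and 219 CPM in the HFD libraries (log2 fold change 3.58 with an SE of 0.27, adjusted p = 2.65e-05 in edgeR).

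Markers of the cell types not described above are given by their sums. The dendritic cell markers summed to 61.6 to 82.6 CPM in Chow and 29.8 to 35.2 CPM in HFD, with 2 of 6 higher and 2 lower. Most of this sum was Zbtb46, at 63.1 ± 14.8 CPM in Chow and 19.5 ± 1.12 CPM in HFD. Zbtb46 and Cd209a were lower, Xcr1 and Flt3 were higher, and Clec9a and Siglech did not pass. The T and NK cell markers summed to 5.94 to 8.35 CPM in Chow and 7.58 to 17.6 CPM in HFD and 1 of 7 was called, as higher. The B and plasma cell markers summed to 2.11 to 4.88 CPM in Chow and 5.17 to 33.6 CPM in HFD, the neutrophil markers to 6.98 to 16.8 CPM in Chow and 15.3 to 18.4 CPM in HFD with 0 of 3 tested called, and the mesothelial markers to 9.64 to 22.4 CPM in Chow and 6.80 to 29.96 CPM in HFD with 0 of 7 called. Of the pericyte and smooth muscle markers 4 of 7 fell, and their sum was 702 to 988 CPM in Chow and 382 to 388 CPM in HFD. The Schwann cell and neuron markers summed to 41.0 to 44.7 CPM in Chow and 50.8 to 56.3 CPM in HFD, with Sox10 not listed. The skeletal muscle markers summed to 53.1 to 65.1 CPM in Chow and 12.4 to 28.2 CPM in HFD. Nearly all of this sum was Acta1, at 59.4 ± 6.42 CPM in Chow and 18.6 ± 8.18 CPM in HFD. Ckm, Myh4, Tnnt3 and Mylpf were too low to be tested. The blood markers summed to 223 to 593 CPM in Chow and 159 to 255 CPM in HFD, while those of epididymis and testis were at most 0.340 CPM.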
